A study of Mus musculus with 12 samples.

Results

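Eosinophils carry surface proteins that mark activation and that let them exchange signals with lymphocytes. The transcripts of 10 such genes, Cd274, Pdcd1lg2, Cd80, Cd86, Icosl, Cd40, Cd69, Cd101, Cd9 and Cd63, were followed by RNA sequencing in eosinophils from 2 compartments, bone marrow and blood. The 10 genes were chosen by name and found through their Ensembl identifiers, all 10 of them among the 53801 genes of the count table. Atg5-knockout mice carried Atg5 flox/flox alleles with eoCre, a Cre recombinase knocked into the eosinophil peroxidase locus and used in the heterozygous state, so that Atg5, a gene required for autophagy, is removed in the eosinophil lineage. Control mice carried eoCre with unmodified Atg5. All groups, controls included, also carried the Il5 transgene (Il5tg), which expands eosinophils in blood and marrow, so no library comes from a mouse with normal Il5. There were 4 groups of 3 libraries each, namely control and Atg5-knockout bone marrow and control and Atg5-knockout blood. The ages of these mice are not given in the sources used here. Eosinophils were enriched by removing T cells, B cells, macrophages and neutrophils with antibodies, and for blood only after a density gradient and lysis of red cells, so that isolation and tissue cannot be told apart.

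CD274 (PD-L1) and PDCD1LG2 (PD-L2) are the ligands of the inhibitory receptor PD-1 on T cells, and CD80 and CD86 bind the stimulatory receptor CD28 and the inhibitory receptor CTLA-4. ICOSL engages ICOS, while CD40 is itself a receptor, bound by CD40 ligand on activated T cells and signalling through TRAF adaptors to NF-κB. CD69 is an early activation antigen of leukocytes, and CD101 is an immunoglobulin-family protein used to tell apart subsets of eosinophils. CD9 and CD63 are tetraspanins, CD9 at the plasma membrane and CD63 in the membranes of lysosomes and secretory granules, from which it reaches the surface on degranulation.

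In the coordinates of GRCm38, which the count table uses, Cd274 lies at chr19:29367455-29388095 and Pdcd1lg2 next to it at chr19:29410919-29471157, both on the plus strand. Cd80 at chr16:38458933-38486933 (plus) and Cd86 at chr16:36603869-36666081 (minus) share chromosome 16. Cd9 (chr6:125460266-125494791) and Cd69 (chr6:129267325-129275436) are on the minus strand of chromosome 6. Cd63 (chr10:128900989-128912822) and Icosl (chr10:78069302-78083913) are on the plus strand of chromosome 10, Cd40 is at chr2:165055627-165072948 (plus) and Cd101 at chr3:100993529-101029556 (minus). Of the 10 genes, Cd9 alone shared exon bases with another gene, 218 of its 2044, with Gm26728 on the opposite strand, which held 0 to 21 counts per group. RefSeq promoter windows in GRCm38.p6 were matched for 7 of the 10 genes and not for Cd86, Cd69 and Cd40. The windows of Cd274, Cd80, Pdcd1lg2 and Cd9 are shown because these genes had the largest differences between blood and bone marrow; each line holds the 250 bases before the RefSeq start site, 5′ to 3′ on the gene's strand, at chr19:29367188-29367437 (plus), chr16:38458683-38458932 (plus), chr19:29410669-29410918 (plus) and chr6:125494761-125495010 (minus), with matches to the 4 motifs named after them in capitals.
Cd274: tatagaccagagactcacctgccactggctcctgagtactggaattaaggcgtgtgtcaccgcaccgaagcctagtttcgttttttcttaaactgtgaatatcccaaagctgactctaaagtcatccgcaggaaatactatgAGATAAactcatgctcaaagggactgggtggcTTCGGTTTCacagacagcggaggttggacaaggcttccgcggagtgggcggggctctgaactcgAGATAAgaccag
Cd80: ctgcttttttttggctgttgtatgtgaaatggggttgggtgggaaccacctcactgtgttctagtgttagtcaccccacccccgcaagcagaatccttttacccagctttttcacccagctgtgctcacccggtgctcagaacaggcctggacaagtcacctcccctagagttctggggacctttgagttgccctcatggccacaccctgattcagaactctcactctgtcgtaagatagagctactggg
Pdcd1lg2: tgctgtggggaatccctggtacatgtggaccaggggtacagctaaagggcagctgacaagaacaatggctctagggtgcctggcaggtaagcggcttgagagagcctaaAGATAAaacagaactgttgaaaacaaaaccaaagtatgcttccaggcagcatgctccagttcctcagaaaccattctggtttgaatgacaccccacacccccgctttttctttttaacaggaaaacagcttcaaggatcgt
Cd9: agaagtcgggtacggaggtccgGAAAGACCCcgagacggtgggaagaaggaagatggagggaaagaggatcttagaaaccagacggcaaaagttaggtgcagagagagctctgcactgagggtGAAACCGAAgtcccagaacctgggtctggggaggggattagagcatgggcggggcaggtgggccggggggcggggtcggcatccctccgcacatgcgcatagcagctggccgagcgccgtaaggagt
The motifs were searched on both strands in the 250 bases before the start site of 32851 promoters. The letters of an interferon response factor motif, GAAANNGAA, stood in 7.13% of promoters and in 2 of the 7 windows, once in Cd274, 76 to 68 bases before the start site on the minus strand, and once in Cd9. AGATAA, the GATA motif, stood in 9.99% of promoters and in 3 of the 7, at 2 places in Cd274 and at 1 each in Pdcd1lg2 and Cd101. GGGNNTTTC, an NF-κB motif, was in 3.72% of promoters and in Cd9 alone among the 7, and TTCNNNGAA, the STAT motif, in 7.02% and in none of the 7 (0 matches). No 2 of the matches shown overlapped. Such matches describe letters and not bound sites.

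The libraries held 18885052 to 30270166 counts. Eosinophil markers were present in every library, with no marker of 9 at 0 in any group, and Siglecf, a surface lectin of eosinophils, reached 345 to 931 CPM (counts divided by the TMM-scaled library size). Atg5 itself, counted over the whole gene and therefore no check of the floxed part alone, was at 42.4 ± 2.61 CPM in control and 31.9 ± 1.74 in knockout marrow (SD, n = 3) and at 48.0 ± 9.62 and 47.2 ± 9.13 in blood, with edgeR adjusted p = 0.157 and 0.99997. The 9 eosinophil markers summed to 69727 to 91618 CPM in marrow and 15462 to 44153 CPM in blood, where 2 of the 9 were called higher and 6 lower in each genotype. Markers of the other lists moved with tissue as well. Neutrophil markers summed to 11301 to 15482 CPM in marrow and 4530 to 9181 CPM in blood, with 4 (control) and 6 (knockout) of 8 called lower in blood, and of 8 basophil and mast cell markers 6 and 7 were called lower. Monocyte and macrophage markers had 4 of 8 called higher in each genotype, and 2 lower in the knockout. Platelet markers had 6 of 8 (control) and 2 (knockout) higher, and 1 lower in the knockout. Of tested B cell markers 1 of 6 and 5 of 8 were higher, and of T cell markers 2 of 3 and 7 of 7. Red cell markers had 5 of 8 higher in controls and 3 lower in the knockout. Dendritic cell markers had 1 higher and 2 lower in each. The part of these lists in the tissue differences was not tested. Blood libraries were less uniform than marrow libraries. Blood replicate 1 of both genotypes stood apart, with summed B cell markers of 1251 CPM (control) and 2136 CPM (knockout) against 174 to 420 CPM in the other 4 blood libraries and 335 to 371 CPM in marrow. Their T cell markers summed to 169 and 246 CPM, against 24.3 to 45.3 CPM in the other blood libraries and 6.48 to 8.47 CPM in marrow, where 1 of the 8 T cell markers was at 0. Control blood replicate 1 also held 14.6% of its counts in 8 red cell genes. For these reasons the tests with blood libraries were also run without those numbered 1, an alternative chosen after these values were seen. In RNA from whole populations, fewer cells of one type and less RNA per cell cannot be told apart.

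Adjusted for gene length, as CPM per kilobase of exon, the tetraspanins stood far above the other genes in every group. In control bone marrow the order ran from Cd63 (276 ± 20.5) over Cd9 (65.2 ± 2.98), Icosl (8.997 ± 0.18), Cd80 (6.02 ± 0.50), Cd274 (5.06 ± 0.73), Cd86 (2.59 ± 0.19), Cd101 (1.80 ± 0.36), Cd69 (1.25 ± 0.11) and Cd40 (1.01 ± 0.33) to Pdcd1lg2 (0.18 ± 0.10), each as mean ± SD of 3 libraries. Of these neighbours, Cd80 and Cd274, and Cd69 and Cd40, overlapped in range. In control blood Cd9 (244 ± 34.5) and Cd63 (234 ± 86.4) overlapped at the top, followed by Cd274 (50.3 ± 14.6) and Cd80 (42.6 ± 12.8), which also overlapped, and then by Icosl (10.1 ± 1.37), Cd86 (5.68 ± 0.36) and, overlapping in sequence, Cd101 (2.04 ± 1.32), Cd40 (1.99 ± 0.91), Pdcd1lg2 (1.70 ± 1.12) and Cd69 (1.40 ± 0.81). Cd274 and Cd80 had thus passed Icosl. The knockout kept this order in blood for the 7 highest genes, from Cd9 (245 ± 57.4) to Cd101 (3.17 ± 2.09), and in marrow for all 10.

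**Figure D1:**
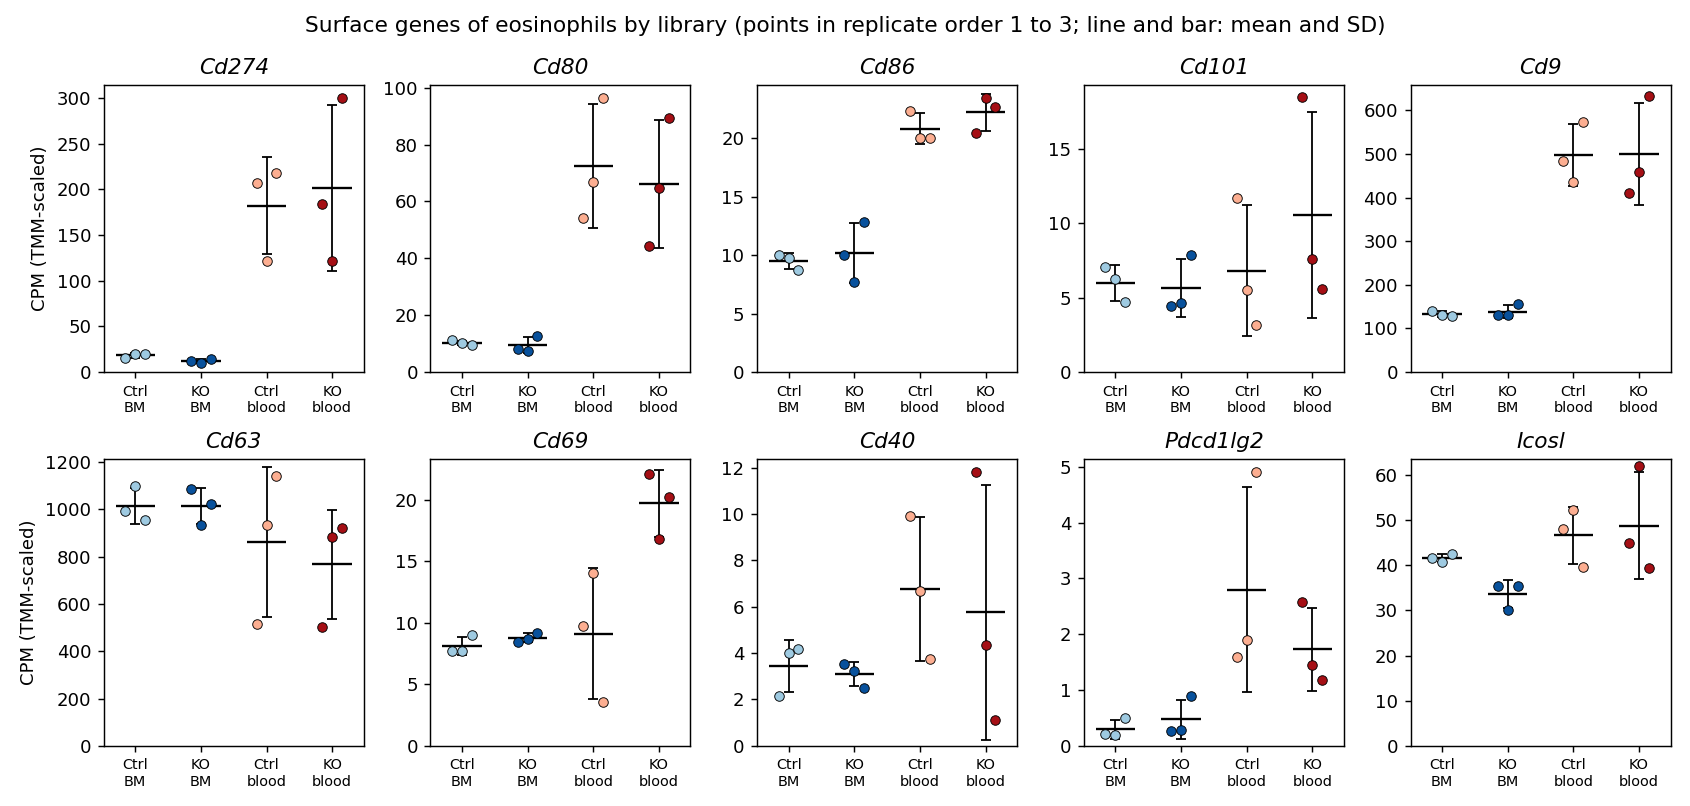
Level of each of the 10 genes in the 12 libraries, in TMM-scaled CPM on a linear axis from 0, with control (Ctrl) and Atg5-knockout (KO) libraries of bone marrow (BM) and blood; points run in replicate order and the line and bar give mean and SD of 3. Cd274, Cd80, Cd86, Cd9 and Pdcd1lg2 lay higher in every blood library than in any marrow library of the same genotype, while the 3 knockout blood libraries lay above the 3 control ones for Cd69. The share of all genes with such a gap between tissues was not counted.

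The comparison of blood with bone marrow asks how these transcripts differ between eosinophils at their site of production and in circulation. In control mice 5 of the 10 genes were higher in blood at an adjusted p under 0.05 and 0 were lower, where 16.2% of the 13669 genes tested were higher and 18% lower. In knockout mice 7 of the 10 were higher and 0 lower, against 23.5% and 24.1% of 13853. Cd274, Cd80 and Pdcd1lg2 also passed a log2 difference of 2 in controls, which 4.38% of genes did upwards, and Cd274 and Cd80 did so in the knockout, against 5.26%. One of these calls is fixed in part by the filter on low counts, since Pdcd1lg2 reached the tests only through its blood libraries. Blood libraries had smaller TMM factors than marrow libraries. With library size alone as the scaling, the median of all genes moved by -0.31 (control) and -0.24 (knockout) on the log2 scale, and the share of calls that were higher in blood went from 47.3% to 25.1% and from 49.4% to 34.3%. The 5 genes higher in blood in both genotypes stayed called under that scaling as well. How many of all genes lay without overlap between the tissues was not counted, so such gaps below describe single genes only.

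Among the PD-1 ligands, Cd274 had the largest difference of the 10 genes. Its CPM in control libraries 1, 2 and 3 was 15.3, 19.7 and 20.0 in marrow and 207, 121 and 217 in blood. In the knockout it was 12.5, 10.1 and 14.8 in marrow and 184, 121 and 299.8 in blood. The lowest blood library thus lay above the highest marrow library in either genotype, replicate 2 being the lowest of the blood libraries in both. The level was 9.84-fold higher in control blood (log2 3.30, SE 0.26, edgeR adjusted p = 4.40e-05) and 16.4-fold higher in knockout blood (log2 4.03, SE 0.33, adjusted p = 2.74e-05). Without the blood libraries numbered 1 the log2 differences were 3.20 and 4.09. In blood of both genotypes Cd274 was highest in replicate 3, which had the lowest B cell marker sum of its group (174 and 296 CPM). Replicate 1, with the highest sum (1251 and 2136 CPM), came second, and replicate 2 (343 and 420 CPM) was lowest. Cd274 thus did not follow the order of the B cell sums in either direction, and the part of B cells was not tested.

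Pdcd1lg2 was scarce. Its 3 control marrow libraries held 7, 5 and 15 counts and the blood libraries 26, 43 and 100, which is 0.30 ± 0.17 CPM against 2.79 ± 1.84 (SD, n = 3). The knockout libraries held 8, 9 and 24 counts in marrow and 60, 32 and 23 in blood, the lowest blood count being smaller than the highest marrow count but not after scaling (1.17 against 0.88 CPM). In controls the difference was 3.18 on the log2 scale (SE 0.64, edgeR adjusted p = 0.00551) and 3.46 without blood replicate 1, and in the knockout 1.87 (SE 0.59, adjusted p = 0.0274). The knockout call was lost without knockout blood replicate 1 (1.47, adjusted p = 0.0644), without knockout marrow replicate 1 (1.57, 0.119) and without knockout marrow replicate 2 (1.58, 0.122), the adjusted p over all alternatives running from 0.0132 to 0.122.

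The ligands of CD28 and CTLA-4 both rose from marrow to blood, Cd80 by more than Cd86. Cd80 was at 11.1, 10.2 and 9.40 CPM in control marrow and at 54.1, 66.9 and 96.5 CPM in control blood, a 7.02-fold difference (log2 2.81, SE 0.24, edgeR adjusted p = 6.59e-05). Its knockout values were 8.21, 7.56 and 12.7 CPM in marrow and 44.3, 64.7 and 89.2 CPM in blood, 7.03-fold apart (log2 2.81, SE 0.29, adjusted p = 0.000102). In both tissues the 2 genotypes overlapped.

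Cd86 was more even from library to library. Its levels were 10.01, 9.72 and 8.71 CPM in control marrow and 22.3, 20.0 and 20.0 CPM in control blood, a 2.17-fold difference (log2 1.12, SE 0.19, edgeR adjusted p = 0.00232). The knockout libraries were at 9.98, 7.72 and 12.8 CPM in marrow and 20.5, 23.5 and 22.6 CPM in blood, 2.21-fold apart (log2 1.14, SE 0.21, adjusted p = 0.00210). Without the blood libraries numbered 1 the log2 differences were 2.99 and 3.03 for Cd80 and 1.07 and 1.19 for Cd86. The ratio of Cd80 to Cd86 within a library, each per kilobase, which no scaling between libraries affects, was 1.77 to 2.39 in the 6 marrow libraries and 4.66 to 10.4 in the 6 blood libraries. That ratio was computed after the values were seen and was not tested. Monocytes, macrophages, which the isolation was meant to remove, and dendritic cells also express both genes. The sum of 8 monocyte and macrophage markers was 2357 to 2759 CPM in marrow and 2970 to 3554 CPM in blood, and that of 8 dendritic cell markers 117 to 163 and 108 to 166 CPM, with none of either list at 0, and their part in the result was not tested.

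Icosl differed little between tissues. Control marrow was at 41.6, 40.7 and 42.4 CPM and control blood at 48.1, 52.1 and 39.7 CPM, overlapping (log2 0.15, SE 0.16, edgeR adjusted p = 0.492). In the knockout every blood library (44.8, 62.0 and 39.3 CPM) lay above every marrow library (35.5, 30.0 and 35.3 CPM), and the difference of 0.55 on the log2 scale (SE 0.18) passed at an adjusted p of 0.0320. This call did not hold with library size alone (0.32, adjusted p = 0.176), with the replicate number as a block (0.53, 0.0549) or without knockout blood replicate 2 (0.34, 0.107) or any 1 of the 3 knockout marrow libraries (0.46 to 0.58, 0.0809 to 0.141), the adjusted p over all alternatives running from 0.0114 to 0.176. Without the blood libraries numbered 1 the log2 differences were 0.14 in controls and 0.61 in the knockout (adjusted p = 0.0202).

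Cd40, the receptor of the group, did not pass in either genotype. It was at 2.16, 4.02 and 4.17 CPM in control marrow and 9.93, 6.68 and 3.73 CPM in control blood (log2 0.96, SE 0.42, edgeR adjusted p = 0.109). In the knockout it was at 3.54, 3.25 and 2.50 CPM in marrow and at 11.8, 4.33 and 1.12 CPM in blood (log2 0.92, SE 0.65, adjusted p = 0.274). Blood libraries spread widely, and in both genotypes Cd40 was highest in replicate 1, where B cells, which carry CD40, had their highest marker sum, and lowest in replicate 3, where that sum was lowest. The B cell sums of blood replicates 1, 2 and 3 were 1251, 343 and 174 CPM in controls and 2136, 420 and 296 CPM in the knockout, with none of the 8 markers at 0 in a blood group, and their part in the result was not tested. Without replicate 1 the log2 difference was 0.59 in controls and -0.16 in the knockout. Without replicate 3 of blood Cd40 was called higher in both, at 1.26 (adjusted p = 0.0365) and 1.40 (0.0220).

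**Figure D2:**
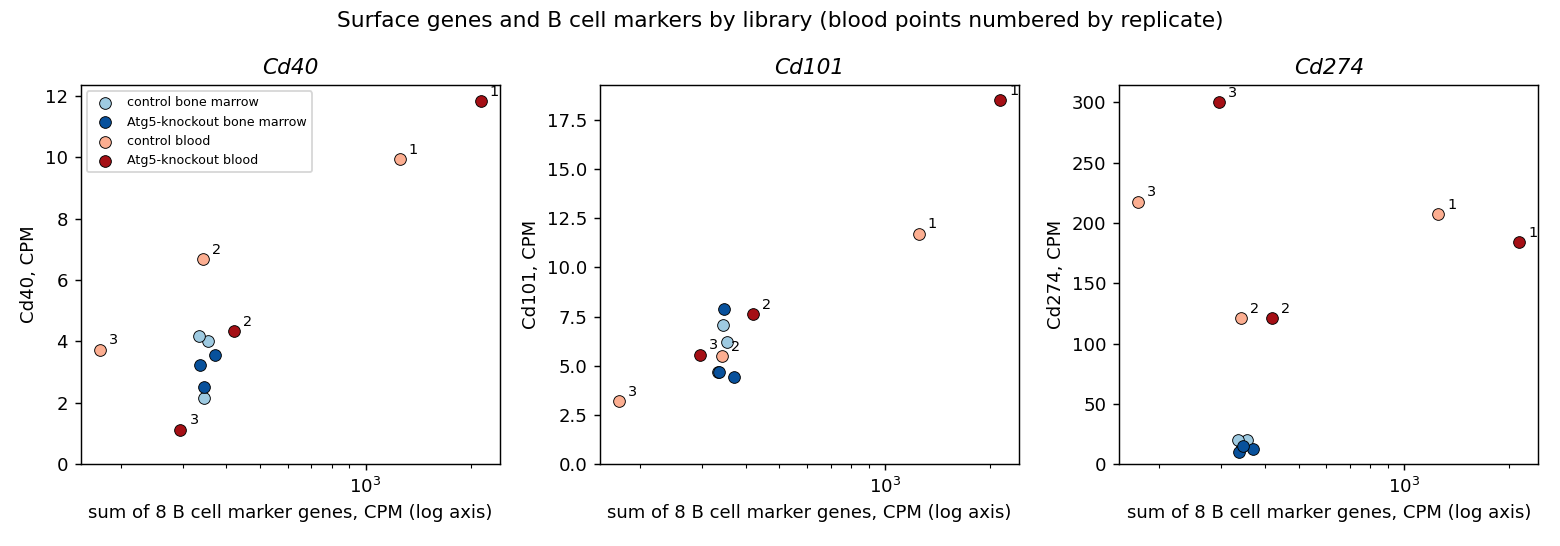
Level of Cd40, Cd101 and Cd274 (CPM, linear axis from 0) in each of the 12 libraries against the summed CPM of 8 B cell marker genes (log axis), with blood points numbered by replicate. Cd40 and Cd101 were highest in blood replicate 1 of both genotypes, at the right. Cd274 was highest in blood replicate 3, at the left among blood libraries, and lowest in replicate 2, which lies between the others of its genotype.

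Cd101 showed the same split among blood libraries. Control blood was at 11.7, 5.50 and 3.19 CPM around the marrow values of 7.09, 6.23 and 4.70 CPM, and the difference was 0.16 on the log2 scale (SE 0.45, edgeR adjusted p = 0.805). Knockout blood was at 18.5, 7.63 and 5.57 CPM and knockout marrow at 4.43, 4.66 and 7.88 CPM, overlapping (log2 0.92, SE 0.44, adjusted p = 0.117). Leaving out blood replicate 1 gave -0.47 in controls and 0.24 in the knockout, whereas leaving out knockout blood replicate 3 gave a call (1.23, adjusted p = 0.0351). In blood of both genotypes the B cell sums given for Cd40 fell from replicate 1 to replicate 3, as Cd101 did. So did the T cell sums, at 169, 29.5 and 24.3 CPM in controls and 246, 45.3 and 34.9 CPM in the knockout. Neutrophil sums were also highest in replicate 1 (9181 and 7259 CPM). In knockout marrow Cd101 was highest in replicate 3 and the B cell sum in replicate 1. The part of any of these cells was not tested.

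Cd69 differed between tissues in the knockout. Its marrow level was nearly even over the 6 libraries, at 7.72, 7.67 and 8.97 CPM in controls and 8.45, 8.70 and 9.17 CPM in the knockout. Control blood scattered around that level (9.75, 14.1 and 3.53 CPM; log2 0.16, SE 0.43, edgeR adjusted p = 0.804), whereas knockout blood was above it in all 3 libraries (22.1, 16.8 and 20.2 CPM), a 2.27-fold difference (log2 1.18, SE 0.18, adjusted p = 0.000734). Without the blood libraries numbered 1 the log2 values were 0.12 and 1.09, and the knockout call held in all 15 alternatives. A call in the knockout and none in controls does not show that the genotypes differ, and the test of that difference is given with the genotype comparisons.

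Of the tetraspanins, Cd9 rose from marrow to blood and Cd63 did not. Cd9 was at 140.1, 131 and 128 CPM in control marrow and 484, 435 and 574 CPM in control blood, a 3.70-fold difference (log2 1.89, SE 0.17, edgeR adjusted p = 8.04e-05). In the knockout the marrow libraries were at 129.9, 131 and 155 CPM and the blood libraries at 410.0, 458 and 633 CPM, 3.64-fold apart (log2 1.86, SE 0.18, adjusted p = 7.14e-05). Without blood replicate 1 the log2 values were 1.91 and 1.99. Platelets also express CD9. Of 8 platelet markers 6 were called higher and 0 lower in control blood (median log2 3.36), and 2 higher and 1 lower in knockout blood (median 0.70). Their sum was 151 to 209 CPM in marrow and 76.2 to 363 CPM in blood, with no marker at 0 in any group. Most of it was Itga2b, except in control blood replicate 1, which had the 363 CPM. There Itga2b was at 144 CPM and Ppbp at 107 CPM. The part of platelets in the result was not tested.

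Cd63 was the most abundant of the genes in marrow. It stood at 994, 1099.9 and 954 CPM in control marrow and 516, 932 and 1140.4 CPM in control blood (log2 -0.25, SE 0.27, edgeR adjusted p = 0.508). Knockout marrow was at 1085, 936 and 1022 CPM and knockout blood at 502, 883 and 919.8 CPM, all 3 below the marrow libraries but with a log2 difference of -0.39 (SE 0.22) and an adjusted p of 0.170. In both genotypes blood replicate 1 was the lowest. Without it the log2 values were 0.02 and -0.16, and with library size alone Cd63 was called lower in the knockout (-0.64, adjusted p = 0.0160, the other alternatives reaching 0.335). Reads of Cd63 may be shared with its pseudogene Cd63-ps, which was counted at 55.6 to 144 CPM over the 12 libraries, and reads matching both were left out of either count, so the level of Cd63 is uncertain. Within a library and per kilobase, Cd9 was at 0.22 to 0.27 of Cd63 in the 6 marrow libraries and at 0.84 to 1.69 in the 6 blood libraries, a ratio computed after the values were seen and not tested.

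**Figure D3:**
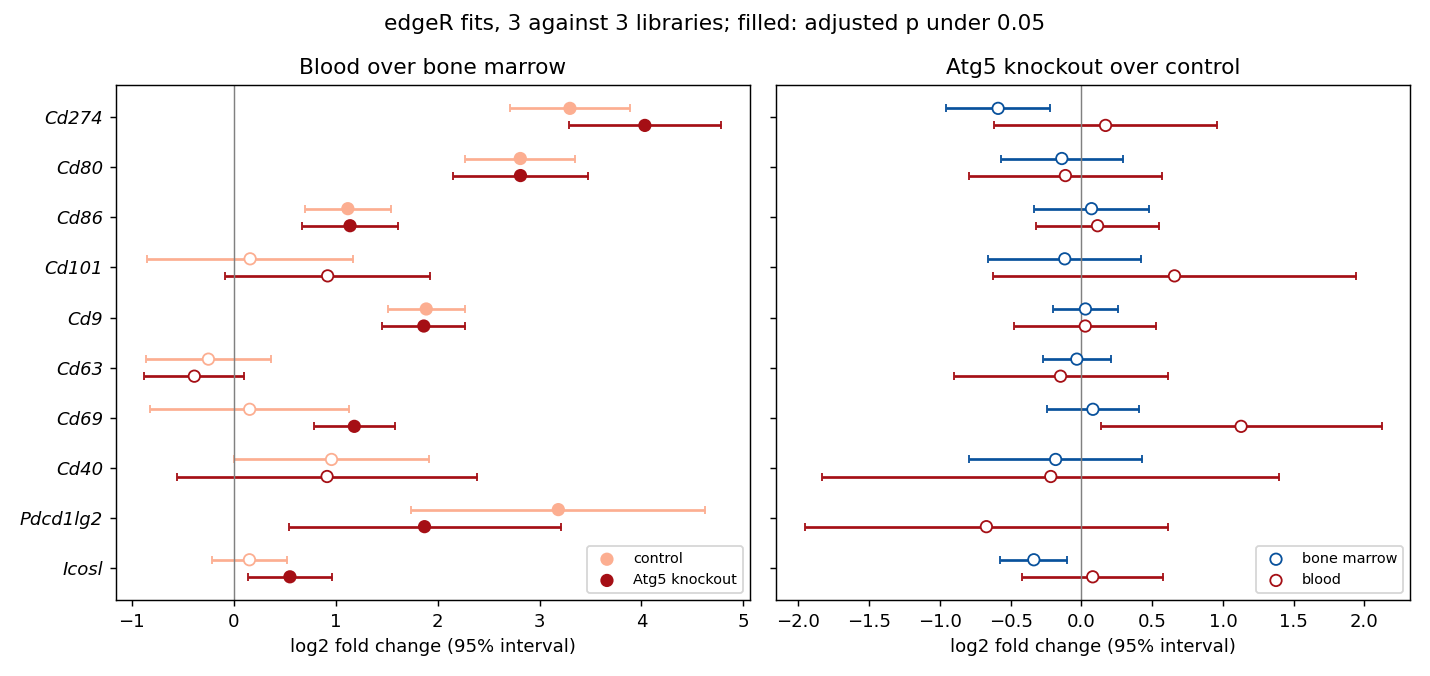
Log2 fold change with 95% interval for the 10 genes, blood over bone marrow within each genotype at the left and Atg5 knockout over control within each tissue at the right; filled points passed an adjusted p of 0.05 in the edgeR fits of 3 against 3 libraries. All filled points are in the comparison of tissues, 5 for control and 7 for knockout mice, with Cd274 farthest right.

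The comparison of Atg5-knockout with control eosinophils asks whether loss of Atg5 changes these transcripts. In bone marrow 9 of the 10 genes passed the filter, Pdcd1lg2 being too low, and 0 of the 9 were called, where 0.348% of the 13781 genes tested were. In blood 0 of 10 were called, against 0.0371% of 13460. At an unadjusted p under 0.05 there were 2 of the 9 genes in marrow, Cd274 and Icosl, where 1333 of all 13781 reached it, and 1 of the 10 in blood, Cd69, where 347 of 13460 did. DESeq2 and limma-voom called 0 of the genes in either tissue. Blood libraries of the same number deviated together from the group means of the 2 genotypes, though no label says that the numbers are pairs. With the replicate as a block, which the main fit left out, 10 genes of the whole table were called in blood in place of 5. Again 0 of these 10 surface genes were among them. Without the blood libraries numbered 1, 5 genes of the table and 0 of these 10 were called.

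Cd274 was lower in all 3 knockout marrow libraries (10.1 to 14.8 CPM) than in the 3 control libraries (15.3 to 20.0 CPM). Such a gap without overlap, knockout lower, was found for 5.67% of genes tested and the opposite one for 8.68%. The level was 1.504-fold lower, -0.59 on the log2 scale with an interval of -0.96 to -0.22. The edgeR fit gave a p of 0.00457 and an adjusted p of 0.240. It passed when no filter on low counts was used (-0.59, adjusted p = 0.0138), a setting that called 420 genes of the table in place of 48. The adjusted p over the 14 alternatives ran up to 1 and the log2 value from -0.73 to -0.45. In blood the genotypes overlapped at a log2 difference of 0.17 (interval -0.62 to 0.96).

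Icosl was the other gene of the 10 without overlap in marrow, with 30.0 to 35.5 CPM in the knockout and 40.7 to 42.4 CPM in controls. This is 1.26-fold lower, -0.34 on the log2 scale (interval -0.57 to -0.10). The edgeR p was 0.00935 and the adjusted p 0.321, and Icosl was called in 0 of 14 alternatives. In blood the difference was 0.08 (interval -0.42 to 0.58). The blood means were 48.7 ± 11.8 CPM in the knockout and 46.6 ± 6.34 CPM in controls (SD, n = 3).

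Cd69 was the 1 gene of the 10 whose genotypes did not overlap in blood, at 16.8 to 22.1 CPM in the knockout and 3.53 to 14.1 CPM in controls. Knockout higher without overlap was found for 3.53% of genes in blood and lower for 4.06%. The 2.19-fold difference (log2 1.13, SE 0.44, interval 0.14 to 2.12) had an edgeR p of 0.0303 and an adjusted p of 0.99997. It was 1.29 (adjusted p = 0.490) with the replicate as a block and 1.08 without the blood libraries numbered 1, and over 15 alternatives it ran from 0.74 to 1.60 with adjusted p of at least 0.431. T cells also express CD69, and the T cell sums of blood replicates 1, 2 and 3 were 169, 29.5 and 24.3 CPM in controls and 246, 45.3 and 34.9 CPM in the knockout, with no marker at 0. Cd69 was highest in replicate 2 of controls and in replicate 1 of the knockout, and the part of T cells in the result was not tested. In marrow the log2 difference was 0.08 (interval -0.25 to 0.41).

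For the other genes the intervals show what the 3 against 3 libraries leave possible. In marrow they were narrow for Cd9 (log2 0.03, -0.20 to 0.26) and Cd63 (-0.03, -0.27 to 0.21), wider for Cd80 (-0.14, -0.57 to 0.29) and Cd86 (0.07, -0.34 to 0.48) and widest for Cd101 (-0.12, -0.66 to 0.42) and Cd40 (-0.18, -0.79 to 0.43). In blood they were -0.32 to 0.55 for Cd86, -0.47 to 0.53 for Cd9, -0.80 to 0.57 for Cd80 and -0.90 to 0.61 for Cd63. Blood intervals of Cd101 (-0.63 to 1.94), Cd40 (-1.83 to 1.40) and Pdcd1lg2 (-1.95 to 0.61) leave differences of more than 1 on the log2 scale possible. Without the blood libraries numbered 1 the log2 differences in blood were 0.33 for Cd274, -0.07 for Cd80, 0.22 for Cd86, 0.15 for Icosl, -0.91 for Cd40, 0.62 for Cd101, 0.13 for Cd9, -0.19 for Cd63 and -1.35 for Pdcd1lg2. A p that misses the threshold does not show that the genotypes were alike.

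The knockout effect was then compared between tissues in a single fit of all 12 libraries. With edgeR 0 of 14712 genes (0.00%) passed, with a lowest adjusted p of 0.406 and 740 genes at an unadjusted p under 0.05, and DESeq2 called 15, with 0 of the 10 surface genes among them. At an unadjusted p under 0.05 there were 0 of the 10. Cd69 came nearest, with an effect larger in blood by 0.9995 on the log2 scale (SE 0.49), a p of 0.0626 and an adjusted p of 0.942 in edgeR. Cd274 followed (0.71, SE 0.42, with a p of 0.117). The remaining 8 had p from 0.153 to 0.983. A difference between the genotypes in the rise of Cd274 or Cd69 from marrow to blood was thus not shown.

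Genes that act with the 10 were followed through 6 lists. Their names, like the 10 genes, were written down with earlier results of these data known, so the counts are descriptions. Of 13 genes of CD40 signalling, 8 were higher in blood and 1 lower in controls, and 9 and 1 in the knockout, with median log2 differences of 1.20 and 0.90, where the medians of all genes tested were -0.0029 and -0.010. Traf1, a TRAF adaptor, rose by 3.79 (SE 0.37, edgeR adjusted p = 0.000136) and 4.52 (adjusted p = 1.92e-05) on the log2 scale. Relb, a subunit of NF-κB, rose by 2.08 in controls, and Nfkbia, which holds NF-κB back, by 2.16 in the knockout. Traf2, another adaptor, was lower (-0.81 and -1.005).

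Of 18 tested surface genes tied to eosinophil activation or identity, 10 were higher in blood and 2 lower in controls, and 11 and 0 in the knockout, with medians of 0.73 and 0.99. Itgax, the integrin CD11c, rose by 3.13 (edgeR adjusted p = 1.16e-05) and 2.79 (6.34e-06), and Thbs1, a secreted and surface-bound adhesion protein, by 4.21 (0.00109) and 3.31 (4.97e-05). Both receptors called lower in controls, Il1rl1 (-0.63) and Il5ra (-0.65), bind cytokines that act on eosinophils, IL-33 and IL-5. Siglecf, Ccr3 and Il5ra of this list were also among the eosinophil markers.

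Of 17 other tetraspanins tested in controls 5 were higher and 2 lower, and of 16 in the knockout 5 and 3, with medians of -0.27 and -0.07. Cd82 rose by 1.02 and 1.08, Cd37 by 1.03 and 1.16 and Tspan13 by 0.72 and 1.57, while Tspan4, a tetraspanin known from migration trails of cells, was lower (-2.41 and -2.80), as were Tspan3 (-0.91 and -0.82) and, in the knockout, Cd151 (-1.20). Tetraspanins as a group were thus called in both directions, as all genes tested were. Cd9 was called higher in both genotypes, and Cd63 was called in neither.

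On the interferon-gamma route that is known to induce CD274, 3 of 8 genes were higher and 1 lower in controls, and 4 and 2 in the knockout, with medians of 0.19 and 0.32. The kinases Jak1 (1.18 and 1.14) and Jak2 (0.91 and 1.16) were higher in blood in both genotypes, whereas Cmtm4 (-1.88 and -1.30) was lower and Ifngr2, a receptor chain, was lower in the knockout (-0.50). CMTM6 and CMTM4 both help to keep CD274 at the surface. Cmtm4 was scarce (1.22 ± 0.75 CPM in control blood and 4.42 ± 1.41 in marrow), and the more abundant Cmtm6 (394 ± 47.1 and 291 ± 10.02 CPM), named after its values were seen, went the other way, by 0.43 in controls (edgeR adjusted p = 0.0633) and 0.58 in the knockout (0.0299). Related ligands were mixed, as all genes tested were, with 2 higher and 2 lower of 11 tested in controls. In the knockout 3 were higher and 1 lower of 10, and the medians were -0.43 and -0.72. Vsir (0.65 and 0.86) and Lgals9 (0.79 and 0.51), both inhibitory ligands, were higher, while the TNF family ligands Tnfsf14 (-1.31 and -0.83) and, in controls, Tnfsf9 (-1.63) were lower.

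Counter-receptors, most of which sit on T cells, were low. Of 3 tested in the knockout 2 were called higher in blood, Ctla4 with 213 counts in blood and 1 in marrow (edgeR adjusted p = 0.000238) and Icos with 137 and 11 counts (adjusted p = 0.0110), and both passed the filter only through blood. In controls these 2 genes were under the filter, with 107 and 3 counts for Ctla4 and 68 and 18 for Icos, and of the 2 others tested 0 were called. T cell markers were also higher, 7 of the 7 tested in knockout blood and 2 of 3 in control blood. Without the blood libraries numbered 1, which had the highest T cell sums, the knockout log2 difference of Ctla4 went from 7.65 to 6.97 (edgeR adjusted p = 9.66e-05). That of Icos went from 3.97 to 2.11 (adjusted p = 0.0286). The part of T cells in the result was not tested. In both genotype comparisons 0 genes of the 6 lists were called. In the tissue comparisons without the blood libraries numbered 1, the genes of CD40 signalling counted 9 higher and 1 lower in each genotype, the surface genes 12 and 2 in controls and 11 and 0 in the knockout, the tetraspanins 5 and 3 and 5 and 7, the interferon-gamma route 4 and 1 and 4 and 2, the related ligands 2 and 5 and 3 and 2, and the counter-receptors 0 and 0 and 2 and 0. In blood between genotypes 0 were called.

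**Figure D4:**
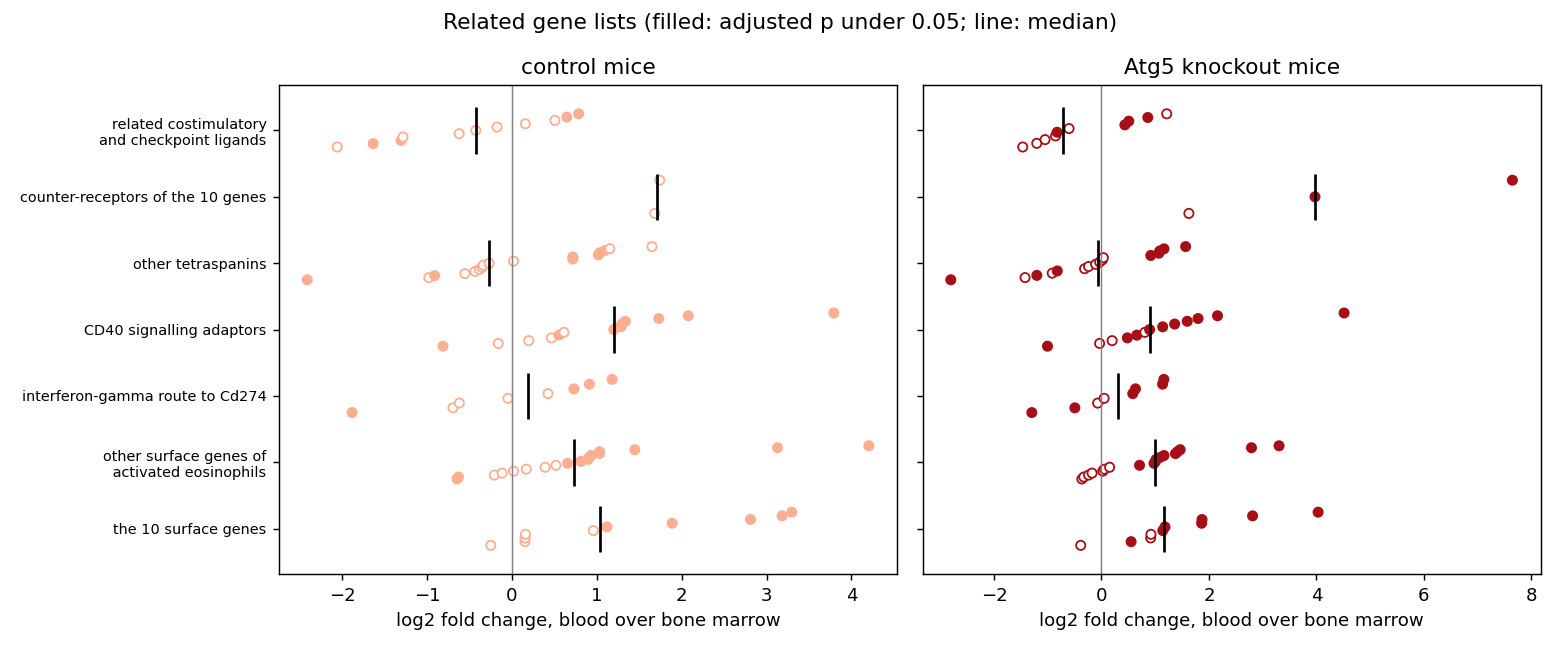
Log2 fold change of blood over bone marrow for the tested genes of the 6 lists and of the 10 surface genes, control mice at the left and Atg5-knockout mice at the right; filled points passed an adjusted p of 0.05 (edgeR) and the black line is the median of the list. The genes of CD40 signalling and the 10 surface genes lie mostly right of 0, with medians of 1.20 and 1.04 in controls, and the tetraspanins lie on both sides.

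The gene with the most similar profile to each of the 10 over the 12 libraries was taken as that with the smallest root mean square difference of centred log2 CPM, among 14711 others. Icosl was nearest to Atat1 (0.11), Cd86 to Cd82 (0.13) and Cd9 to Cytip (0.15). Cd63 was nearest to its pseudogene Cd63-ps (0.094), with which it may share reads. For Cd101 the nearest was Ighm (0.28), the immunoglobulin M heavy chain of B cells, which is also 1 of the 8 B cell markers. The others were less close relative to the 0.11 of Icosl, with Cd69 and Zmat1 at 0.32, Cd80 and Adora2a at 0.32, Cd274 and Ets2 at 0.33, Cd40 and Gm3699 at 0.33 and Pdcd1lg2 and Gm10605 at 0.47. The 12 libraries share tissues and the same scaling, so these distances are descriptions.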

How the data were processed

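RNA of eosinophils was sequenced as stranded mRNA libraries, 100-base single reads in 1 lane. The authors deposited raw counts per gene, made with HISAT2 2.2.1 and featureCounts 2.0.1 and, per the file headers, the annotation of Ensembl release 92 on GRCm38 (the study's methods name another release), with no option for strand, multimapping or overlapping reads. Reads matching several places or genes were therefore left out. The header also shows the option for paired reads, while the study's methods name single-end reads, and the counts were used as deposited. Symbols came from GENCODE M39 (49674 identifiers matched). Counts were tested with edgeR 4.0.16 (quasi-likelihood, TMM factors, filterByExpr with a minimum count of 10 and total of 15) in 6 libraries per comparison. Benjamini-Hochberg adjustment ran over all genes tested, with a threshold of 0.05. CPM were TMM-scaled. DESeq2 1.42.0, limma 3.58.1 (voom), other scalings, filters and samples were alternatives. The scripts were tested on simulated data. Intervals from 3 libraries a group cover the spread between libraries, and nothing in the labels says which libraries share an animal.

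Same-numbered blood libraries of the 2 genotypes deviated together from their group means (correlations 0.64, 0.41 and 0.40). Whether the numbers are pairs is not given by any label, and the cause was not tested. This did not hold in the other comparisons (-0.23 to 0.19). All 10 genes are named whatever their values, and of each list the 2 called higher and 2 called lower with the lowest p. The 10 genes and all lists were chosen with earlier results of these data known. Columns of other samples left out numbered 0.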

Additional observations from a re-analysis of the deposited data

How the results depend on the processing

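With 3 libraries a group, the low genes in blood had wide intervals, and even the difference of 1.13 for Cd69 between genotypes did not pass. The 5 genes higher in control blood (5 or 6 called in all 15 alternatives) kept their calls in each of them. For Pdcd1lg2, which passes the filter on low counts only through its blood libraries, this call is fixed in part by that filter. In the knockout 5 to 9 were called, and Cd274, Cd80, Cd86, Cd9 and Cd69 kept theirs; the losses of Icosl and Pdcd1lg2 and the gains of Cd40, Cd101 and Cd63 stand beside their values. The block by replicate number gave 6 in place of 7 in the knockout. It changed no other call of the 10 genes. With no filter, 420 genes of the whole table in place of 48 were called in marrow between genotypes, 1 of the 10 genes (Cd274) among them. The cause of these changes was not tested.

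Genes called over the whole table between genotypes in marrow (48) became 196 with DESeq2, 12 in a fit of all 12 libraries, 420 with no filter, 23 with the replicate block and 18 to 219 on leaving out 1 library. In blood the 5 became 22, 16, 77, 10 and 2 to 6. Control blood against marrow (4678) ran from 2627 to 5926 on leaving out 1 library. For the contrast of the genotype effect in blood with that in marrow, the 0 became 15 with DESeq2 and 119 with no filter.

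Log2 values of genes that were not called changed sign as follows. On leaving out 1 library in marrow, knockout against control ran from -0.44 to 0.034 for Cd101, -0.41 to 0.0085 for Cd80, -0.080 to 0.037 for Cd63, -0.13 to 0.24 for Cd86 and -0.065 to 0.077 for Cd9. In blood it ran from -0.40 to 0.15 for Cd80, -0.030 to 1.296 for Cd101, -0.41 to 0.11 for Cd63, -0.13 to 0.21 for Icosl, -0.24 to 0.44 for Cd274, -0.19 to 0.15 for Cd9, -1.30 to 0.27 for Cd40 and -1.08 to 0.011 for Pdcd1lg2, and Cd9 was at -0.010 with no filter. Control blood against marrow ran from -0.47 to 0.51 for Cd101, -0.49 to 0.019 for Cd63 and -0.30 to 0.55 for Cd69, and the knockout from -0.16 to 1.40 for Cd40. In controls, limma-voom gave -0.061 (Cd101) and -0.050 (Cd69), library size alone -0.15 (Cd101), -0.14 (Cd69) and -0.15 (Icosl), and the replicate block -0.0076 (Cd101) and -0.022 (Cd69). Without both blood libraries numbered 1, Cd101 was at -0.47 and Cd63 at 0.019 in controls and Cd40 at -0.16 in the knockout.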
